A study of Mus musculus with 18 samples.

Results

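The D-type cyclins Ccnd1, Ccnd2 and Ccnd3, the kinases Cdk4 and Cdk6 that they switch on, and the transcription factors Myc and Mycn were followed in mouse embryonic stem (ES) cells given retinoic acid. Their probe sets were taken by symbol, and the 7 genes were chosen with earlier results of these data known. The array held 23 probe sets for them, of 45101 probe sets in all, and the platform annotation named 18194 genes. D cyclins bind Cdk4 or Cdk6, and the active kinase phosphorylates the retinoblastoma protein and its relatives, which releases E2F factors and lets a cell pass from G1 into S phase. Myc and Mycn pair with Max, bind the E-box motif and raise genes for ribosome production and biosynthesis. Mouse ES cells have a short G1 phase, and Myc is among the genes that LIF (leukemia inhibitory factor), added to culture to hold these cells undifferentiated, is known to sustain.

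RNA of AB1 mouse ES cells was measured on 18 single-colour Affymetrix 3' expression arrays. The cells were CYP26A1-/-, called knockout here, or wild type. Cyp26a1 encodes a cytochrome P450 enzyme that oxidises and so clears retinoic acid (RA), a vitamin A product and ligand of nuclear receptors. In each genotype 2 arrays held cells given 100 nM RA for 72 h, 3 held cells given 100 nM RA for 8 h and 3 held control cells at 8 h, all labelled as grown with LIF, and 1 array held control cells labelled as kept without LIF for 8 h. The labels name no clone of the knockout line. No 72 h control was listed, so RA and time in culture cannot be told apart in the 72 h groups. Signal is in MAS5 units, linear intensities on a scale where every array has a trimmed mean of 500. Within a probe set these units can be compared between arrays, and no level is set against that of another gene.

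Median signal lay between 54.4 and 75.6 units over the 18 arrays. The 6 ES cell marker genes tested, Pou5f1 and Nanog among them, each read at least 100 units on every array. After 8 h of RA, Cyp26a1 read 193 to 216 units in knockout cells, against 637 to 1695 units in wild-type cells, and after 72 h it read 2873 to 3075 units in knockout cells, against 3211 to 3402 units in wild-type cells. Which part of the gene was disrupted is not given in the sources used here, so this probe set does not check the genotype labels. The LIF labels of the first control arrays are in doubt: Socs3, a gene induced by LIF, read 4551 units in the knockout and 3800 units in wild type on the arrays labelled without LIF, against 215 units in the knockout and 368 units in wild type on the first control arrays, labelled with it. Socs3 lay between 2628 and 6001 units on the other 14 arrays. Results were therefore also computed with these labels exchanged within each genotype, and without the first control arrays. Of the 23 probe sets, 18 passed the filter of at least 2 arrays at 100 units, and each of the 7 genes had at least 1 that passed. The probe set with the highest mean stands for its gene.

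Promoter windows of 4 of the 7 genes, Mycn, Cdk6, Cdk4 and Ccnd3, were searched for 2 motifs of this pathway, and those of Ccnd1, Ccnd2 and Myc were not analysed here. The sequences of the 3 genes with a match are shown. The motifs were the E-box CACGTG, bound by Myc with Max, and an E2F motif, searched as TTTGGCGC or TTTCGCGC on both strands. Each sequence is a window of 300 bases from RefSeq, build GRCm38.p6, printed 5′ to 3′ on the gene's own strand from 250 bases before an annotated transcript start. Capitals mark motif matches. The windows are chr12:12941787-12942086, minus strand, for Mycn, chr5:3343643-3343942, plus strand, for Cdk6 and chr10:127063285-127063584, plus strand, for Cdk4.
Mycn: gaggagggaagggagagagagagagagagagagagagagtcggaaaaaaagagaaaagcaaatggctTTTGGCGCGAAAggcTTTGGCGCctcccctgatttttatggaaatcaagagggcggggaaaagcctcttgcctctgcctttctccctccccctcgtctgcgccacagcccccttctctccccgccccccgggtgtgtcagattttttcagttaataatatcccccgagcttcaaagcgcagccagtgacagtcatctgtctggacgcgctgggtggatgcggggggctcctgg
Cdk6: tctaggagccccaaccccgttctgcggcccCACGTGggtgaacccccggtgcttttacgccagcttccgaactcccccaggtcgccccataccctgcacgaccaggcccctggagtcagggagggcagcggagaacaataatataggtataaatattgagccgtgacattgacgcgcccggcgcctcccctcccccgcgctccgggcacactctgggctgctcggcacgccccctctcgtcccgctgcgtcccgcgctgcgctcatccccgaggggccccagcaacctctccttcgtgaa
Cdk4: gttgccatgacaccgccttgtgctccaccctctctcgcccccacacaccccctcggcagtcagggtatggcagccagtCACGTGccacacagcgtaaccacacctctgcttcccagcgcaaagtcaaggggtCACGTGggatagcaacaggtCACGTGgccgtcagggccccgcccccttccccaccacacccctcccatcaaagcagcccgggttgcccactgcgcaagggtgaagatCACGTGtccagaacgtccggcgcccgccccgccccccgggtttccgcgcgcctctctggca
The Mycn window held 3 E2F matches, and the first 2 of them overlap. Cdk6 had 1 E-box and Cdk4 had 4. Of all 32841 promoter windows of this length, 7.15% held an E-box and 0.813% an E2F match, and 8 windows, 0.0244%, held at least 4 E-boxes. The 2 Ccnd3 windows held neither motif. A match is a description of the letters and not evidence of binding.

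After 72 h of RA, 4 of the 7 genes were called in each genotype. Called means an adjusted p under 0.05 from limma over the 11388 genes tested. In knockout cells Cdk6, Ccnd1, Mycn and Myc fell relative to control, and no member rose, where 23% of all genes tested were called (14.8% higher and 8.26% lower). In wild-type cells Mycn, Ccnd1 and Myc fell and Ccnd2 rose, where 24.7% of all genes were called (16.1% higher and 8.64% lower). The median log2 difference of the 7 genes was -1.14 in knockout cells and -0.71 in wild-type cells, against 0.06 over all genes in each genotype. After 8 h of RA, 0 of the 7 genes were called in either genotype (background 0.957% in knockout cells and 0.904% in wild-type cells), and 1, Mycn, had an unadjusted p under 0.05 in both. No share of all genes was computed for counts at an unadjusted p, here or below. The 8 h and the 72 h comparison of a genotype share its control arrays. In bulk RNA, fewer cells of a type and less RNA per cell cannot be told apart.

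**Figure D1:**
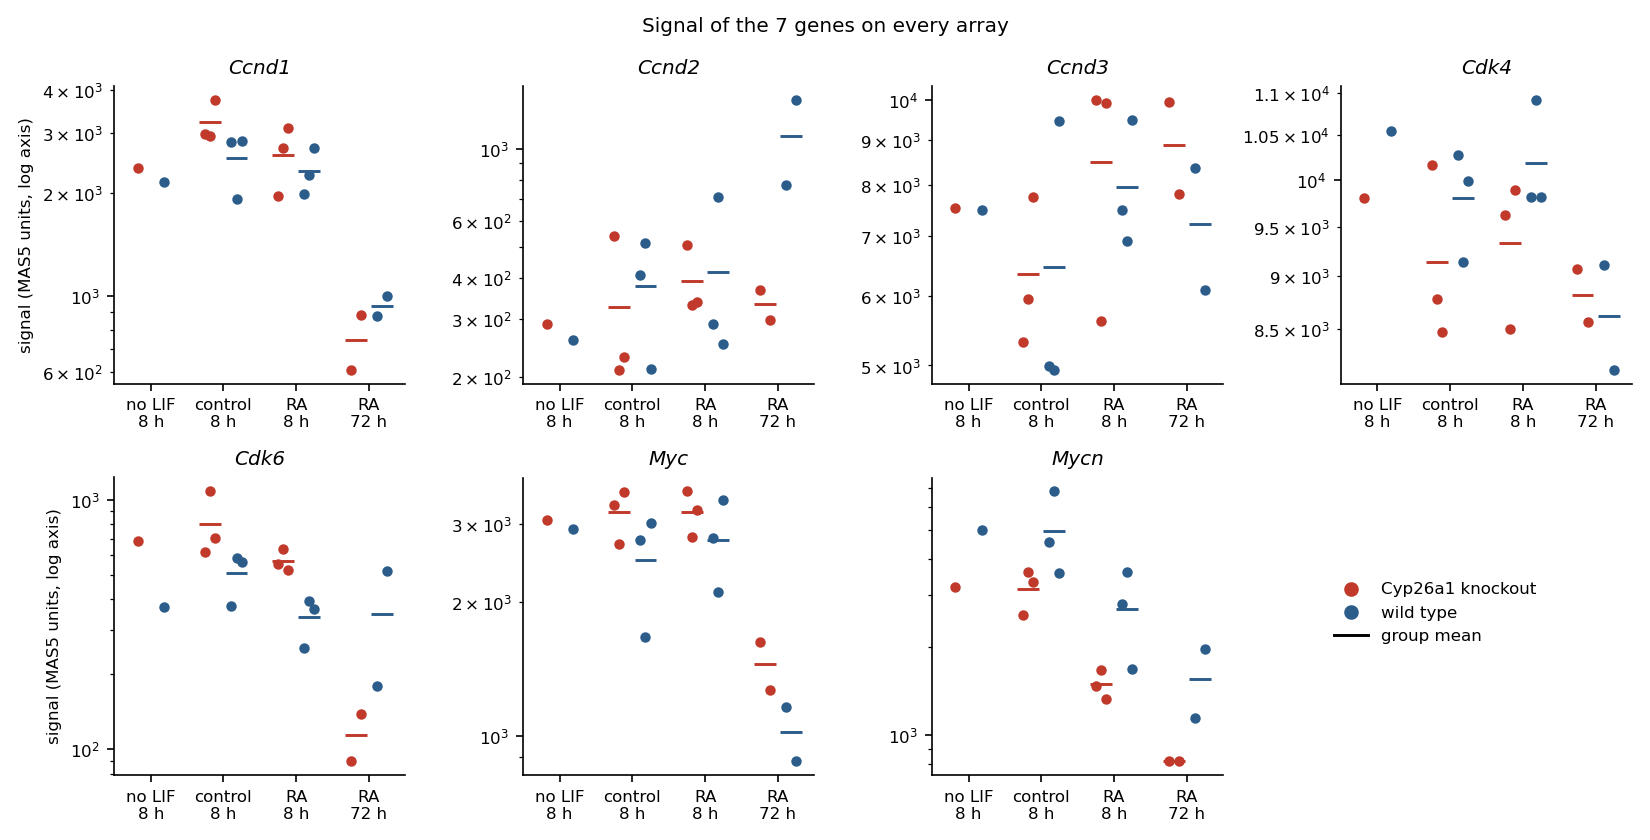
Signal of the probe set standing for each of the 7 genes (MAS5 units, log axis, each panel with its own range) on all 18 arrays, by condition, with knockout arrays in red left of wild-type arrays in blue. Points are arrays and short lines are group means. Within each genotype the group means of Ccnd1, Myc and Mycn are lowest after RA for 72 h, though single Mycn arrays overlap in wild type. At 72 h Ccnd2 is highest in wild-type cells and Cdk6 lowest in knockout cells.

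Markers of another lineage moved with the 72 h groups. The summed signal of 11 extraembryonic endoderm markers, Gata6 and Sox17 among them, was 20884 to 20893 units in knockout cells after 72 h, against 2594 to 4419 units in knockout control cells. In wild-type cells it was 24873 to 28077 units after 72 h, against 4113 to 10702 units in control cells. All 11 read at least 100 units on every 72 h array. The summed ES cell markers were 59194 to 63777 units after 72 h in knockout cells, against 70161 to 73571 units in control cells, and 47742 to 52595 units after 72 h in wild-type cells, against 62195 to 68801 units in control cells. Taken singly, 3 of these 6 genes were called lower in each genotype, where 8.26% and 8.64% of all genes were. Their log2 differences ran from -0.78 to 0.22 in knockout and from -1.50 to 0.36 in wild-type cells. Summed markers of trophectoderm (6 genes) were 463 to 554 units in control, 673 to 876 units after 8 h and 646 to 698 units after 72 h in knockout cells. In wild-type cells they were 323 to 748 units in control, 457 to 986 units after 8 h and 1417 to 1459 units after 72 h, so only the wild-type arrays at 72 h lay above the range of both earlier groups. Neural markers (5 genes) summed to 239 to 409.9 units in control, 341 to 600.1 units after 8 h and 689 to 729 units after 72 h in knockout cells. In wild-type cells they summed to 339 to 579 units in control, 324 to 483 units after 8 h and 699.7 to 817 units after 72 h. The part of these shifts in the changes of the 7 genes was not tested.

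Ccnd1, on chromosome 7, encodes cyclin D1, the D cyclin that growth factor signals are best known to raise. In knockout cells it read 2986, 2939 and 3762 units in control, 1963, 2715 and 3109 units after 8 h of RA, and 609 and 881 units after 72 h. In wild-type cells it read 2835, 1927 and 2853 units in control, 1989, 2268 and 2706 units after 8 h, and 874 and 1000.4 units after 72 h. Every 72 h array lay below every control and 8 h array, and the arrays of control and 8 h overlapped in both genotypes. Relative to control, Ccnd1 fell by 2.13 ± 0.23 on the log2 scale (± standard error) in knockout cells, 4.38-fold lower (limma adjusted p = 9.41e-06), and by 1.42 ± 0.23 in wild-type cells, 2.67-fold lower (adjusted p = 0.000324). The knockout response minus the wild-type response was -0.71 ± 0.32 and did not pass the test (unadjusted p = 0.0408, limma adjusted p = 0.853). Values are of probe set 1417420_at. The other 2 probe sets of Ccnd1 were also called lower at 72 h in both genotypes, in a fit where 15.6% of 22757 probe sets were called in knockout cells and 17.3% in wild-type cells. Their log2 differences were -2.37 in knockout and -2.03 in wild-type cells for 1417419_at, and -1.41 in knockout and -0.93 in wild-type cells for 1448698_at.

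Ccnd2, on chromosome 6, encodes cyclin D2 (probe set 1416122_at). In knockout cells it read 538, 209 and 229.9 units in control, 507, 332 and 337 units after 8 h, and 368 and 299 units after 72 h. In wild-type cells it read 409, 514 and 210.3 units in control, 291, 711 and 252 units after 8 h, and 775 and 1413 units after 72 h. Both wild-type arrays at 72 h were above every other array, while the knockout arrays at 72 h lay within the range of their controls. Relative to control, Ccnd2 rose by 1.56 ± 0.49 on the log2 scale in wild-type cells, 2.96-fold (limma adjusted p = 0.0287), and differed by 0.16 ± 0.49 in knockout cells (95% interval -0.87 to 1.20, adjusted p = 0.853). At 72 h the knockout-minus-wild-type log2 difference was -1.66 ± 0.53 (adjusted p = 0.104), and the difference of the 72 h responses, -1.40 ± 0.69, did not pass the test either (adjusted p = 0.937).

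The rise of Ccnd2 rested on few arrays. Without wild-type replicate 2 at 72 h it was 1.13 (limma adjusted p = 0.253), and without wild-type control replicate 3 it was 1.19 (adjusted p = 0.0965). With no filter on dim genes the adjusted p was 0.0972. Wild-type replicate 2 at 72 h also stood apart in fibroblast markers: Col1a1 read 302 units and Col1a2 read 432 units there, against 76.8 and 91.3 units in replicate 1. The sum of the 7 fibroblast markers was 1365 units on that array, 354 units in replicate 1 and 261 to 845 units on the 16 other arrays. Thy1, the only one of the list bright enough to test, fell at 72 h in both genotypes (log2 difference -2.02 in knockout and -2.51 in wild-type cells). Without Thy1, a choice made after the values were seen, the sum of the other 6 was 1286 units on that array, 254 units in replicate 1 and 51.7 to 207 units on the 16 other arrays. The part of this in the Ccnd2 and Cdk6 values of that array was not tested. Of the 7 Ccnd2 probe sets, 4 passed the filter. All 4 were higher in wild-type cells at 72 h, by 1.56 to 1.81 on the log2 scale, and 3 were called, with 1455956_x_at at an adjusted p of 0.0725.

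**Figure D2:**
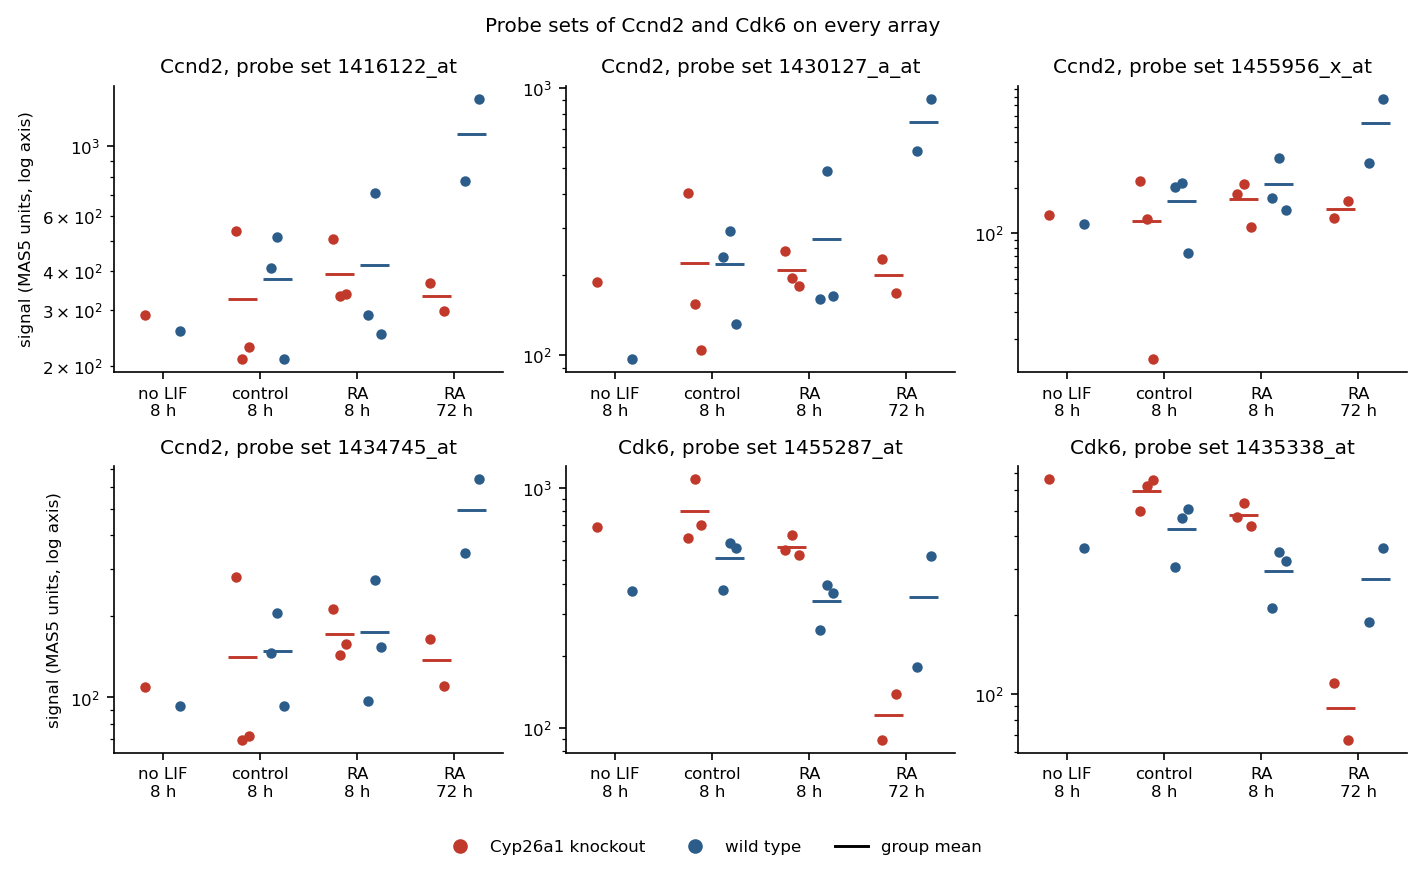
Signal (MAS5 units, log axis, not floored) of the 4 Ccnd2 and 2 Cdk6 probe sets that passed the filter, on all 18 arrays, knockout in red left of wild type in blue, with group means as short lines. In each Ccnd2 panel the 2 wild-type arrays at 72 h are above the knockout arrays at 72 h, and in both Cdk6 panels the knockout arrays at 72 h are the lowest.

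Ccnd3, on chromosome 17, encodes cyclin D3 (probe set 1415907_at). It read 5314, 5944 and 7759 units in knockout control cells, 10001, 5612 and 9912 units after 8 h, and 9935 and 7812 units after 72 h. The wild-type values were 4990.0, 4941 and 9459 units in control, 7498, 6915 and 9482 units after 8 h, and 8368 and 6086 units after 72 h. The arrays of a group spread widely and those of wild type overlapped in all 3 conditions. Ccnd3 was not called in any of the 12 planned comparisons. At 72 h its difference from control was 0.49 ± 0.29 in knockout cells (95% interval -0.13 to 1.12, limma adjusted p = 0.257) and 0.21 ± 0.29 in wild-type cells (-0.41 to 0.84, adjusted p = 0.652).

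Cdk4 (probe set 1422441_x_at), on chromosome 10, the kinase partner that proliferating cells generally express, varied least among the 7 genes. It lay between 8124 and 10917 units over all 18 arrays and was not called in any planned comparison. In knockout cells it read 10161, 8781 and 8469 units in control, 9622, 8494 and 9893 units after 8 h, and 9071 and 8561 units after 72 h. Wild-type cells read 10275, 9142 and 9984 units in control, 9815, 10917 and 9814 units after 8 h, and 9107 and 8124 units after 72 h. The knockout groups overlapped, and the wild-type arrays at 72 h were below those of the other conditions. The wild-type difference of 72 h from 8 h was -0.24 ± 0.11 on the log2 scale (unadjusted p = 0.0367, limma adjusted p = 0.117). Against control, the 95% interval of the 72 h difference was -0.27 to 0.18 in knockout cells and -0.41 to 0.04 in wild-type cells. The 4 E-boxes printed above stand in the promoter window of this gene.

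Cdk6, on chromosome 5, encodes the other cyclin D kinase (probe set 1455287_at). In knockout cells it read 619, 1086 and 705 units in control, 552, 636 and 524 units after 8 h, and 89.4 and 138 units after 72 h. In wild-type cells it read 375, 588 and 565 units in control, 256, 394 and 367 units after 8 h, and 179.5 and 521 units after 72 h. Both knockout arrays at 72 h were the lowest of the 18, and the wild-type arrays at 72 h lay far apart, 1 below and 1 within the range of their controls. Relative to control, Cdk6 fell by 2.81 ± 0.38 on the log2 scale in knockout cells, 7.01-fold lower (limma adjusted p = 8.75e-05), the largest fall among the 7 genes. The second probe set of Cdk6, 1435338_at, fell by 2.78 ± 0.32 there (adjusted p = 3.59e-05). With the mean of all Cdk6 probe sets, the dim 1460291_at included, the log2 difference was -1.86.

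In wild-type cells the Cdk6 difference from control at 72 h was -0.71 ± 0.38 (limma adjusted p = 0.192), and this turned on replicate 2, the array with the fibroblast markers. Without that array Cdk6 was called lower in wild-type cells too, with a log2 difference of -1.48 ± 0.36 (adjusted p = 0.0152), the remaining array being taken to vary like the other groups. At 72 h the knockout-minus-wild-type log2 difference was -1.46 ± 0.41 (adjusted p = 0.063). For probe set 1435338_at this difference was -1.60 ± 0.35 and was called (adjusted p = 0.0231), where 2.54% of the 22757 probe sets tested were called. The gene's difference was -0.69 without wild-type replicate 2 (adjusted p = 0.600) and -2.23 without replicate 1 (adjusted p = 0.0125). The difference of the 72 h responses was -2.10 ± 0.53 and did not pass the test (unadjusted p = 0.00128, adjusted p = 0.180). It was -2.87 without wild-type replicate 1 at 72 h (adjusted p = 0.041) and -1.33 without replicate 2.

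Myc, on chromosome 15, was measured by 1 probe set, 1424942_a_at. In knockout cells it read 3317, 2701 and 3545 units in control, 3560.2, 2807 and 3226 units after 8 h, and 1629 and 1272 units after 72 h. In wild-type cells it read 2764, 1672 and 3024 units in control, 2797, 2107 and 3395 units after 8 h, and 1166 and 878 units after 72 h. The 72 h arrays of each genotype were below all its control and 8 h arrays, which overlapped. Relative to control, Myc fell by 1.14 ± 0.24 on the log2 scale in knockout cells, 2.20-fold lower (limma adjusted p = 0.00357), and by 1.25 ± 0.24 in wild-type cells, 2.38-fold lower (adjusted p = 0.00171). Without knockout replicate 2 at 72 h the knockout difference was -0.96 (adjusted p = 0.0634). The responses of the genotypes differed by 0.11 ± 0.35 (95% interval -0.62 to 0.85).

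Mycn, on chromosome 12, encodes N-Myc, a close relative of Myc that is prominent in embryonic cells (probe set 1417155_at). In knockout cells it read 2569, 3595 and 3337 units in control, 1474, 1673 and 1334 units after 8 h, and 816 and 815 units after 72 h. In wild-type cells it read 4563, 6811 and 3576 units in control, 2814, 3598 and 1689 units after 8 h, and 1149 and 1972 units after 72 h. In the knockout the 3 conditions did not overlap. In wild type the highest 8 h array was just above the lowest control, and the higher 72 h array lay between the lower 8 h arrays. Relative to control, Mycn fell at 72 h by 1.94 ± 0.30 on the log2 scale in knockout cells, 3.85-fold lower (limma adjusted p = 0.000321), and fell by 1.68 ± 0.30 in wild-type cells, 3.19-fold lower (adjusted p = 0.000963).

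At 8 h Mycn differed from control by -1.08 ± 0.27 in knockout cells (limma adjusted p = 0.0926) and by -0.90 ± 0.27 in wild-type cells (adjusted p = 0.206), neither of them called. With replicate numbers as a block, many of them given only by order of deposition, both were called (limma adjusted p = 0.00416 and 0.0148). The shares of all genes called were then 3% and 2.41%. With the LIF labels of the first control arrays exchanged, the knockout difference was -1.18 and was called (adjusted p = 0.0338). Averaged over both genotypes, a test added after the values were seen, Mycn was 1.98-fold lower at 8 h (log2 difference -0.99 ± 0.19, adjusted p = 0.00789), the 1 of the 7 genes called there, where 3.36% of all genes were. The second Mycn probe set, 1425922_a_at, was called lower at 72 h, with log2 differences of -1.27 in knockout and -1.35 in wild-type cells, and was not called at 8 h. The dim 1425923_at reached 100 units on 2 arrays and was called in neither. The mean of all 3 gave Mycn differences of -0.80 in knockout and -0.88 in wild-type cells at 72 h, both still called, and -0.41 at 8 h over both genotypes, not called (adjusted p = 0.241). The averaged 8 h call was also lost with no filter on dim genes (adjusted p = 0.0613), and held under the other 22 of 24 settings.

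**Figure D3:**
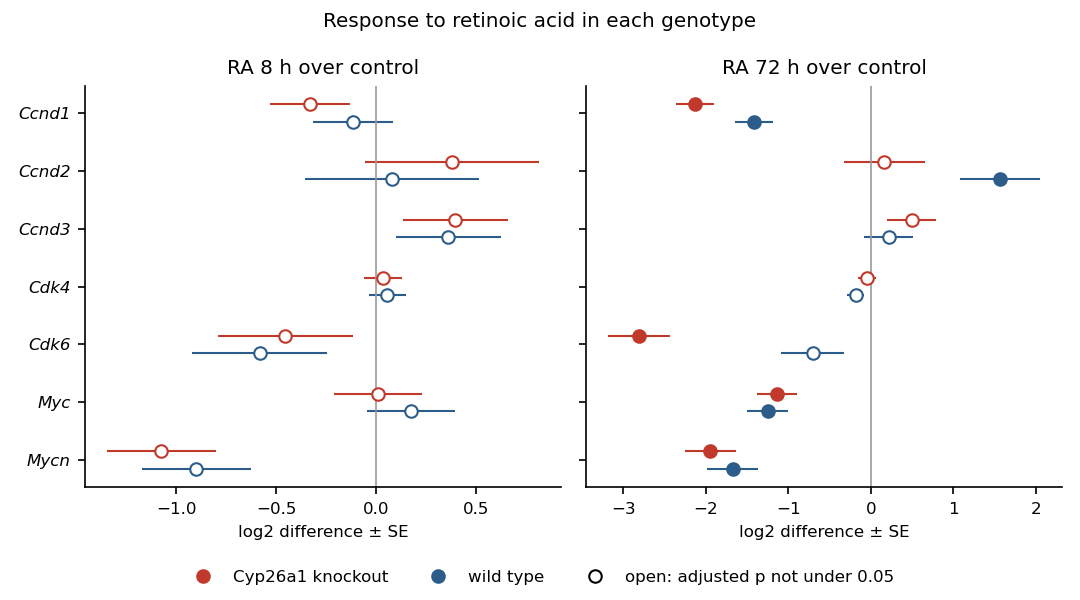
Log2 difference from control after RA for 8 h (left) and 72 h (right), with standard errors, for the 7 genes, knockout in red above wild type in blue. Filled points have a limma adjusted p under 0.05; at 72 h these are Ccnd1, Cdk6, Myc and Mycn in the knockout and Ccnd1, Ccnd2, Myc and Mycn in wild type, and at 8 h there are none.

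The 72 h arrays were also compared with the 8 h arrays. Between these times, 3 of the 7 genes were called in knockout cells, where 19.2% of all genes were, and 3 in wild-type cells, where 22.3% of all genes were. These comparisons share the 72 h arrays with those against control. In knockout cells Cdk6 fell by 2.35 ± 0.38 on the log2 scale (limma adjusted p = 0.000541), Ccnd1 by 1.80 ± 0.23 (adjusted p = 6.96e-05) and Myc by 1.14 ± 0.24 (adjusted p = 0.00446). In wild-type cells Myc fell by 1.42 ± 0.24 (adjusted p = 0.000726), Ccnd1 fell by 1.30 ± 0.23 (adjusted p = 0.000774) and Ccnd2 rose by 1.49 ± 0.49 (adjusted p = 0.0397), with the Ccnd2 call lost under 9 of 17 other settings. Mycn differed by -0.87 ± 0.30 in knockout cells (adjusted p = 0.0591) and by -0.78 ± 0.30 in wild-type cells (adjusted p = 0.0821), neither called. The Mycn difference was called under 3 of 17 other settings in knockout cells and 2 of 17 in wild-type cells.

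Between the genotypes, 0 of the 7 genes were called in control cells, 0 after 8 h and 0 after 72 h by limma, where 4.64%, 4.61% and 4.07% of all genes were called. With the replicate numbers as a block in the fit, these counts were 2, 2 and 4. The shares of all genes were then 9.39%, 9.78% and 8.82%. The numbers name no known shared culture. Without the block, 1, 2 and 3 genes had an unadjusted p under 0.05, a threshold at which no share of all genes was computed. Mycn was in each count. Its knockout-minus-wild-type difference was -0.62 ± 0.27 in control cells (adjusted p = 0.270), -0.79 ± 0.27 after 8 h (adjusted p = 0.124) and -0.88 ± 0.33 after 72 h (adjusted p = 0.183). Every knockout array lay below every wild-type array at 8 h and at 72 h, while 1 wild-type control array, at 3576 units, lay just under the highest knockout control at 3595 units. The share of all genes whose arrays separate like this was not computed, here or for Cdk6 below. Averaged over the 3 conditions, a test added after the values were seen, Mycn was 1.70-fold lower in the knockout (log2 difference -0.76 ± 0.17, adjusted p = 0.00542), the 1 member called where 17.7% of all genes were.

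The Cdk6 differences between genotypes, none of them called for the gene, ran in opposite directions. The 3 knockout arrays were above the 3 wild-type arrays in control cells (log2 difference 0.64 ± 0.34) and after 8 h (0.77 ± 0.34, limma adjusted p = 0.252), and below the 2 wild-type arrays after 72 h, as given above. Myc was higher in the knockout by 0.38 ± 0.14 over the 3 conditions, without a call (adjusted p = 0.0712). The remaining members differed by at most 0.36 in size in control cells and after 8 h. None of the 7 genes had a called difference of responses at 8 h, where 0% of all genes did, nor at 72 h, where 0.342% did. With the replicate block Cdk6 was called at 72 h (limma adjusted p = 0.00963), where 0.492% of all genes were. Without the block, 0 genes at 8 h and 2 at 72 h, Ccnd1 and Cdk6, had an unadjusted p under 0.05, with no share of all genes computed.

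**Figure D4:**
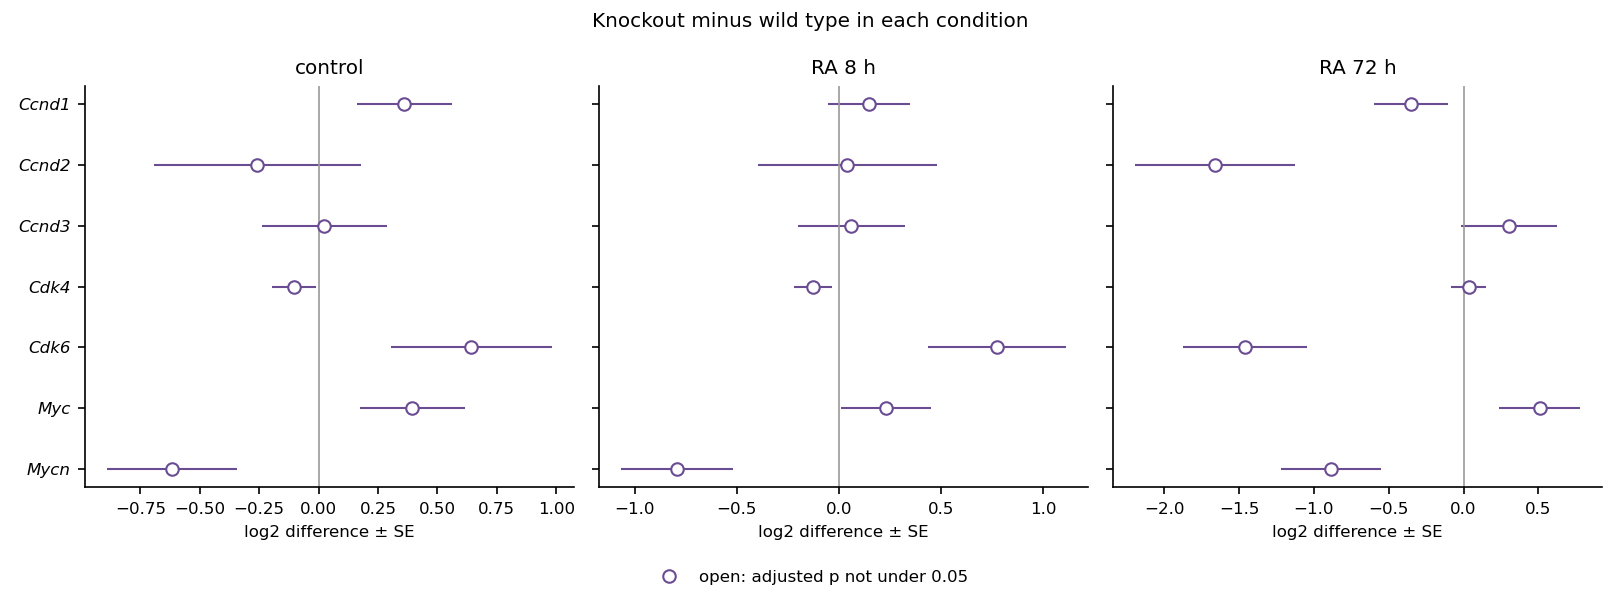
Knockout-minus-wild-type log2 difference with its standard error for the 7 genes in control cells, after RA for 8 h and after RA for 72 h, each panel with its own horizontal range. No point passes an adjusted p of 0.05; Mycn lies below 0 in all 3 panels, and Cdk6 lies above 0 in control cells and after 8 h and below 0 after 72 h.

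In cells labelled as kept without LIF for 8 h, the log2 differences of the 7 genes from control lay between -0.32 and 0.28. Mycn read 3208 units in the knockout and 5019 units in wild type without LIF, and Myc read 3062 units in the knockout and 2917 units in wild type. By limma, 0 of the 7 genes were called over 8 arrays with genotype in the model, where 0% of 10476 genes were, and 0 had an unadjusted p under 0.05. With the LIF labels of the first control arrays exchanged, 1.83% of all genes were called and still 0 of the 7. The largest differences then were 0.80 for Ccnd2 (adjusted p = 0.296) and -0.45 for Ccnd3 (adjusted p = 0.380), both with an unadjusted p under 0.05. With the first control arrays left out, 0 of the 7 were called, the Ccnd2 difference was 0.03 in place of -0.24, and Cdk6 had the largest difference, -0.49 (unadjusted p = 0.036, adjusted p = 0.894).

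The wider pathway was read from lists of genes by role, each set against the shares of all genes tested that were called at 72 h, 14.8% higher and 8.26% lower in knockout cells, and 16.1% higher and 8.64% lower in wild-type cells. Without wild-type replicate 2 at 72 h, the wild-type shares were 8.81% higher and 4.15% lower. Of 20 genes that Myc is known to activate, mostly nucleolar proteins and enzymes of biosynthesis, 9 fell and 0 rose at 72 h in knockout cells (median log2 difference -0.41, against 0.06 over all genes), and 15 fell and 0 rose in wild-type cells (median -0.57). These are 45% of the list in knockout and 75% in wild-type cells. Leaving out any 1 of the 72 h arrays leaves 1 in its group and lowers the share of all genes called. The lists were refitted only without wild-type replicate 2, and not without wild-type replicate 1 or a knockout array at 72 h. A loss of calls in that fit therefore does not single out this array. Without wild-type replicate 2, 8 of 20 fell in wild-type cells, 40% of the list. Nolc1, a nucleolar phosphoprotein gene, fell by 0.83 ± 0.13 in knockout (limma adjusted p = 0.000304) and fell by 1.14 ± 0.13 in wild-type cells (adjusted p = 1.62e-05). Srm, which encodes spermidine synthase, fell by 0.92 ± 0.12 in knockout and fell by 0.90 ± 0.12 in wild-type cells. Between genotypes at 72 h, Nolc1 (0.99 ± 0.14, adjusted p = 0.00109) and Ldha (0.74 ± 0.12, adjusted p = 0.00201) were called higher in the knockout. In control cells 1 gene of this list was also called higher in the knockout, and after 8 h 1 was. The difference of the 72 h responses was called for 0 of the 20 genes, where 0.342% of all genes were. In the Myc-Max network, 3 of 11 tested genes, 27.3%, rose in each genotype. Mga fell in the knockout, with its call lost when the first control arrays were left out (adjusted p = 0.106) or their LIF labels exchanged (adjusted p = 0.0579). Mxd4, which encodes a Max partner that represses, rose by 1.80 ± 0.27 in knockout (adjusted p = 0.000259) and 1.33 ± 0.27 in wild-type cells (adjusted p = 0.00252), while Mycl, another Myc family gene, rose in wild-type cells by 1.60 ± 0.47 (adjusted p = 0.0203, and 0.0608 with quantile normalization).

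Of 7 genes for inhibitors of cyclin-dependent kinases, 2 rose and 0 fell at 72 h in knockout cells (median 0.48) and 5 rose and 0 fell in wild-type cells (median 0.97). These are 28.6% of the list in knockout and 71.4% in wild-type cells. This list, too, was not refitted without wild-type replicate 1 or a knockout array at 72 h. Without wild-type replicate 2, 2 of 7 rose in wild-type cells, 28.6% of the list. Cdkn1a, which encodes p21, rose by 1.0 ± 0.20 in knockout (limma adjusted p = 0.00234) and 1.67 ± 0.20 in wild-type cells (adjusted p = 2.98e-05), and was lower in the knockout at 72 h (log2 difference -1.07 ± 0.22, adjusted p = 0.0114, and 0.124 without wild-type replicate 2). Cdkn2b, which encodes p15, an inhibitor of Cdk4 and Cdk6, was lower in the knockout at 72 h (log2 difference -2.57 ± 0.36, adjusted p = 0.000951) and rose in wild-type cells by 1.63 ± 0.33 (adjusted p = 0.00214, and 0.0551 without wild-type replicate 2). In control cells 2 of the 7 inhibitors were already called lower in the knockout, 1 was after 8 h and 2 were after 72 h. Of all genes, 4.64%, 4.61% and 4.07% were called in these comparisons. The difference of the 72 h responses was called for 0 of the 7 inhibitors. Of 21 partners at the G1 to S step, 4 rose and 4 fell in knockout cells and 3 rose and 4 fell in wild-type cells. The shares that rose, 19% in knockout and 14.3% in wild-type cells, were near those of all genes. The share that fell, 19% in each genotype, was above the 8.26% and 8.64% of all genes. E2f8, a repressing E2F, fell by 1.53 ± 0.13 in knockout (adjusted p = 1.15e-06) and fell by 1.50 ± 0.13 in wild-type cells (adjusted p = 1.23e-06), and Tfdp1, the partner that E2F factors need, fell by 0.84 ± 0.10 in knockout and fell by 0.59 ± 0.10 in wild-type cells. Ccne1, which encodes cyclin E1 and is named after its values were seen, fell by 1.52 ± 0.34 in knockout and fell by 1.67 ± 0.34 in wild-type cells.

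Of 14 replication genes that E2F is known to raise, 2 fell and 0 rose at 72 h in each genotype, with a median of -0.14 in knockout and -0.26 in wild-type cells. That is 14.3% of the list, above the 8.26% and 8.64% of all genes that fell, but it rests on 2 genes in each genotype. The wild-type calls did not hold without replicate 2, in a fit with 1 array left in its group. Of 10 genes tested for turnover of D cyclins and Myc, 0 rose and 1 fell in knockout cells and 1 rose and 1 fell in wild-type cells. The called shares, 10% in knockout and 20% in wild-type cells, were below those of all genes, 23% in knockout and 24.7% in wild-type cells. At 8 h, 0 genes of these 6 lists were called in either genotype. The LIF response list had 1 call at each time in each genotype, Pim1, which was higher by 1.19 ± 0.19 in knockout and 1.17 ± 0.19 in wild-type cells at 8 h. Its 8 h difference was 1.23 in knockout and 1.21 in wild-type cells with the LIF labels of the first control arrays exchanged, and 1.14 in knockout and 1.18 in wild-type cells without those arrays, called each time. At 72 h its call in wild-type cells was lost without wild-type replicate 2 (adjusted p = 0.125).

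**Figure D5:**
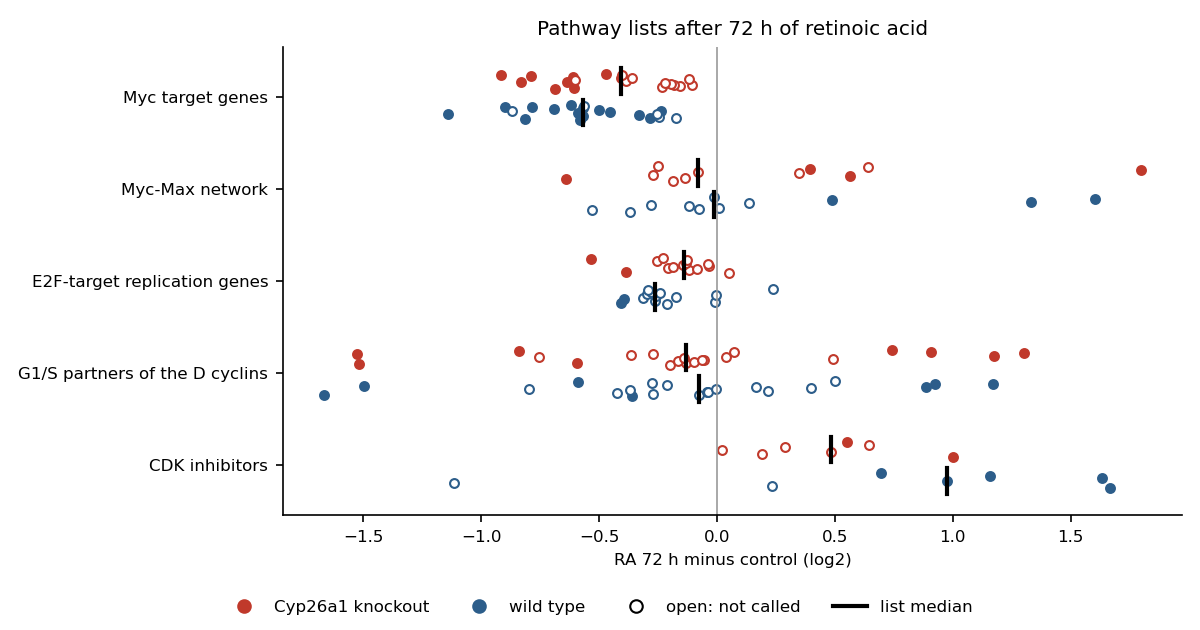
Log2 difference from control after RA for 72 h for each tested gene of 5 pathway lists, knockout in red above wild type in blue, with filled points called by limma and black bars at list medians. The Myc target genes lie below 0, 9 of 20 called in the knockout and 15 of 20 in wild type, and the called inhibitors of cyclin-dependent kinases lie above 0.

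Across the 18 arrays, the genes whose log2 signal followed that of each member most closely were named by Pearson correlation among 11387 other tested genes. The arrays share groups and replicate numbers, so these values describe the pattern and carry no test. For Ccnd1 they were Mt2 (r = 0.966), a metallothionein gene, Fam98b (0.949) and Exosc4 (0.944), and for Myc they were Tgfb1 (r = 0.967), Ppm1g (0.956) and Ruvbl1 (0.953). For Mycn they were Scarb2 (r = 0.939), Arhgef3 (0.936) and Cep43 (0.919). For Cdk6 they were Tbc1d2 (r = 0.837), Abi3 (0.832) and Prepl (0.830), and for Ccnd2 Rhox9 (r = 0.866), Peg3 (0.865) and Fndc3c1 (0.863). For Ccnd3 the closest were 1700037H04Rik (r = 0.892), Trp53i11 (0.882) and Itpk1 (0.882), and for Cdk4 Mrps18a (r = 0.904), Nomo1 (0.888) and Commd4 (0.879). Among the members themselves, Ccnd1 and Myc (r = 0.835) and Ccnd1 and Cdk6 (r = 0.796) ran most alike over the 18 arrays, while Ccnd2 and Myc ran most opposed (r = -0.651).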

How the data were processed

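Per the submitters' processing notes the authors used MAS5, and the intensity values they deposited, linear and single for every probe set on each array, were its output. The version of MAS5 is not given in the sources used here. Here every array was rescaled so that its mean, trimmed by 2%, was 500, a floor of 50 was set, and the deposited values were put on a log2 scale. Between 41.6% and 48.3% of probe sets lay at that floor. Arrays carry no count depth, and precision is limited by how many there are and by how far a signal stands above background. Genes were named from the platform annotation where a probe set had 1 symbol, and tested where at least 2 arrays of the fit reached 100. Differences came from limma 3.58.1 in R 4.3.3 (lmFit, eBayes with trend): 1 fit of the 16 arrays of the replicated groups (10 residual degrees of freedom) and a LIF fit of 8 arrays (5 degrees of freedom), with two-sided p-values and Benjamini-Hochberg adjustment over all genes tested. A second fit took all probe sets singly. The script was tested on simulated data. A fold and test are given for a member where its unadjusted p was under 0.05, and up to 3 called genes of a list are named. Other values, such as those of Ccnd3, of Cdk6 in wild-type and control cells and of Ccne1, were named after being seen. The members and the lists were chosen with earlier results of these data known. The labels do not say whether repeats were separate cultures, so p-values measure only how far these samples spread, which may be technical.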

Additional observations from a re-analysis of the deposited data

How the results depend on the processing

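The counts of called members after RA for 72 h lay between 3 and 5 in each genotype over 17 other settings, and Ccnd1, Mycn and, in the knockout, Cdk6 kept their calls in all of them. Leaving out 1 array gave 3 to 4 called members at 72 h against control and 2 to 3 against 8 h in each genotype. It gave 0 to 1 for knockout over wild type at 8 h (1 without wild-type replicate 3, Mycn at -1.10), 0 to 1 at 72 h and 0 to 1 for the difference of the 72 h responses (Cdk6 in both, without wild-type replicate 1). Myc in the knockout lost its call without knockout replicate 2 at 72 h, also against 8 h (-0.97). Without wild-type replicate 3, 3.06% of all genes were called for knockout over wild type at 8 h. For knockout over wild type at 72 h, 1 member was called in a fit of the compared groups alone (Ccnd2), where 6.05% of all genes were. With the LIF labels exchanged 1 was called (Cdk6), where 5.32% of all genes were, and with the mean of all probe sets 1 (Cdk6), where 4.15% were. For RA 8 h in the knockout, 1 was called in the compared groups alone and 1 with the LIF labels exchanged, Mycn both times. The shares of all genes called there were 0.603% and 1.37%. Of the member results with an unadjusted p under 0.05 in the fit described above, 0 turned direction in these settings. Ccnd3 without LIF, outside that set, changed sign with the LIF labels of the first control arrays exchanged. Signal limits Cdk6 most: its lowest array, at 89.4 units, lay near the floor, and 5 of the 23 probe sets of these genes were too dim to test.

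Replicate numbers were tried as a block. The titles number some arrays 2 or 3, and the others were numbered by order of deposition. Those others are the first array of each group and the second wild-type arrays of control and RA 8 h. Of 36 same-numbered pairs of arrays, 33 had deviations from the group mean that correlated above 0.1 (median 0.262). The median was -0.135 over 70 other pairs, and 16 of 16 arrays correlated best with their own number. Deviations within a group sum to 0, so positive same-numbered correlations force negative ones among the other pairs. The -0.135 is therefore no independent comparison, and the 16 arrays do not count separately. Since 3 pairs stayed under 0.1 and many numbers follow only the order of deposition, the arrays are taken to share a number and not a known culture. With the replicate block 1 member was called after 8 h in the knockout and 1 in wild type (Mycn, limma adjusted p = 0.00416 and 0.0148). Between genotypes 2 were called in control cells, 2 after 8 h and 4 after 72 h. In the difference of the 72 h responses 1 was called (Cdk6, limma adjusted p = 0.00963), and 1 without LIF (Ccnd3, 0.54). Both arrays without LIF are number 1, so with the block the Ccnd3 difference came only from setting them against the first control arrays. The LIF labels of those arrays are in doubt, and the sign of this difference turns with the labels. The share of all genes called without LIF with the block rests on the same arrays.

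The share of all genes called moved too. With the block it was 3% and 2.41% for RA 8 h in knockout and wild type, 32.9% and 34.6% for RA 72 h, 27.7% and 31.3% for 72 h over 8 h, 9.39%, 9.78% and 8.82% between genotypes in control, at 8 h and at 72 h, and 2.17% without LIF. At its lowest it was 0.313% and 0.124% for RA 8 h, 12% and 13% for RA 72 h, 8.93% and 10.5% for 72 h over 8 h, and 1.23%, 2.15% and 0.898% between genotypes; for the difference of the 72 h responses it ran over 0.00884% to 1.69%.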
